A study of Mus musculus with 18 samples.

Results

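The genes of the tricarboxylic acid (TCA) cycle and of pyruvate entry into it were followed in leukemia stem cells (LSCs) taken from mice whose bone marrow stroma did or did not carry a Cxcl12 mutation. The set held 33 genes of the 54347 in the deposited table, chosen by symbol, with the first 18 characters of each table ID matched to the GENCODE mouse annotation. All 33 had enough counts to be tested, among 12973 genes tested in all.

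In the mitochondrion, pyruvate is carried across the inner membrane and turned into acetyl-CoA by the pyruvate dehydrogenase complex, which kinases switch off and phosphatases switch on. Citrate synthase joins acetyl-CoA to oxaloacetate, and the cycle then oxidises the product step by step, passing electrons to NADH and, at succinate dehydrogenase, directly to the respiratory chain. Acute myeloid leukemia stem cells are known to lean on this oxidative route, and the study's title names redox and energy balance of these cells as its subject.

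LSCs were sorted from bone marrow of C57BL/6JRj mice at 30 days from the start of leukemia, with 7000 cells per mouse. The 4 control mice had the genotype Prx1-Cxcl12-wild type and the 5 mutant mice the genotype Prx1-Cxcl12-mutant, and both groups carried leukemia. Each mouse was read as 2 technical libraries of polyadenylated RNA by a bulk form of MARS-seq, a method that reads the 3′ ends of transcripts. The Prx1 promoter is active in limb and long bone mesenchyme, the source of marrow stromal cells, so the sorted LSCs are not the cells the mutation targets and their RNA gives no check of it. Of the sorting markers, the leukemia driver, and the age and sex of the mice, none is stated in the labels used here. The labels do not say whether the mice came from separate leukemias, and p-values measure the spread between these mice.

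A library held 3825500 to 15071673 counts and a mouse 11766467 to 25485899, with means of 15160572 ± 2307737 in controls (SD, n = 4) and 20734088 ± 4170598 in mutants (SD, n = 5). Levels are given as CPM, counts scaled to a common library total with TMM factors, and 3 counts, taken as the floor, corresponded to 0.118 to 0.255 CPM. All 10 progenitor and leukemic markers looked for, among them Ptprc, Kit, Cd34, Myb, Meis1, Hoxa9 and Mpo, were present in both groups. They summed to 1556 to 1786 CPM in the controls and 1286 to 2600 CPM in the mutants. Flt3 was uneven, with 3 counts, the floor, in control 1 (0.237 CPM) and 176 in mutant 6 (9.69 CPM). Its log2 fold change was 1.02 (SE 0.75). Of the 10, 2 had a log2 fold change above 0 (median -0.17), Mpo reached 1962 CPM in mutant 8, and Kit had 23.5 to 27.4 CPM in the controls and 16.1 to 21.8 CPM in the mutants (edgeR adjusted p = 0.254). The T cell genes Cd3e, Cd3g and Cd4, the megakaryocyte gene Ppbp, and the stromal and endothelial genes Kitl, Prrx1 and Cdh5 were at or below the floor. Other genes of these lists were not. T and NK cell markers summed to 89.3 to 144 CPM in controls and 102 to 194 CPM in mutants. Most of this was Nkg7, with means of 126 and 136 CPM. Megakaryocyte and platelet markers summed to 27.2 to 38.6 and 20.9 to 32.2 CPM, mostly Gp1bb, with means of 29.0 and 22.1 CPM. Summed B and plasma cell markers covered 48.3 to 69.7 CPM in controls and 42.8 to 63.7 in mutants, mast and basophil markers 8.69 to 20.6 and 9.15 to 17.9, and stromal and endothelial markers 46.0 to 59.2 and 38.3 to 52.4. Mature neutrophil markers summed to 363 to 758 CPM in the controls and 157 to 352 CPM in the mutants, without overlap, and 4 of the 7 had a log2 fold change above 0. Camp alone had 281 to 550 CPM in the controls and 75.3 to 195 CPM in the mutants (log2 fold change -1.47). Ltf went the other way (1.47), and S100a8 was level (-0.03). Erythroid markers, 6 of 6 tested ones above 0, summed to 5.98 to 51.4 CPM in the controls and 14.2 to 58.0 CPM in the mutants. Cell division markers were above 0 for 12 of 12 genes (median log2 fold change 0.27, 0 called, 6 with an unadjusted p under 0.05), beside 51.7% of all genes tested above 0, 0.0694% called and 9.85% with an unadjusted p under 0.05. They summed to 1293 to 1562 CPM in the controls and 1441 to 1758 CPM in the mutants. In mutant 7 the genes of the mitochondrial genome held 0.0701% of the counts, while the other 8 mice held more, up to 0.263% in control 2. The part of these differences in the results below was not tested.

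No gene of the set changed between the groups by the test used, and most stood slightly higher in mutant cells. With edgeR's quasi-likelihood test, adjusted by Benjamini-Hochberg over all 12973 genes, 0 of the 33 were called at an adjusted p under 0.05, against 0.0694% of all genes tested (9 genes). The adjusted p-values of the 33 lay between 0.408 and 0.979. DESeq2, limma-voom on the mouse sums, and limma-voom on all 18 libraries with a random effect for the mouse, also called 0 of the 33. At an unadjusted p under 0.05, 4 were higher in mutants (Fh1, Idh3a, Dlat and Pdhx) where 4.96% of all genes were, and 1 was lower (Pdk2) where 4.89% were, 5 in all beside 9.85% of genes in either direction. In bulk RNA, a lower share of cells that express a gene and less of its RNA per cell cannot be told apart.

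Log2 fold changes, mutant over control, were above 0 for 23 of the 33 genes, beside 51.7% of all genes, and their median was 0.10 beside 0.01 for all genes tested. They ran from -0.96 (Pdk2) to 0.39 (Idh3a). For 0 of the 33 did the groups separate without overlap, where 4% of all genes did. Without control 4 the median of the 33 was 0.15, the one mouse whose removal moved it by more than 1.5 times.

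**Figure D1:**
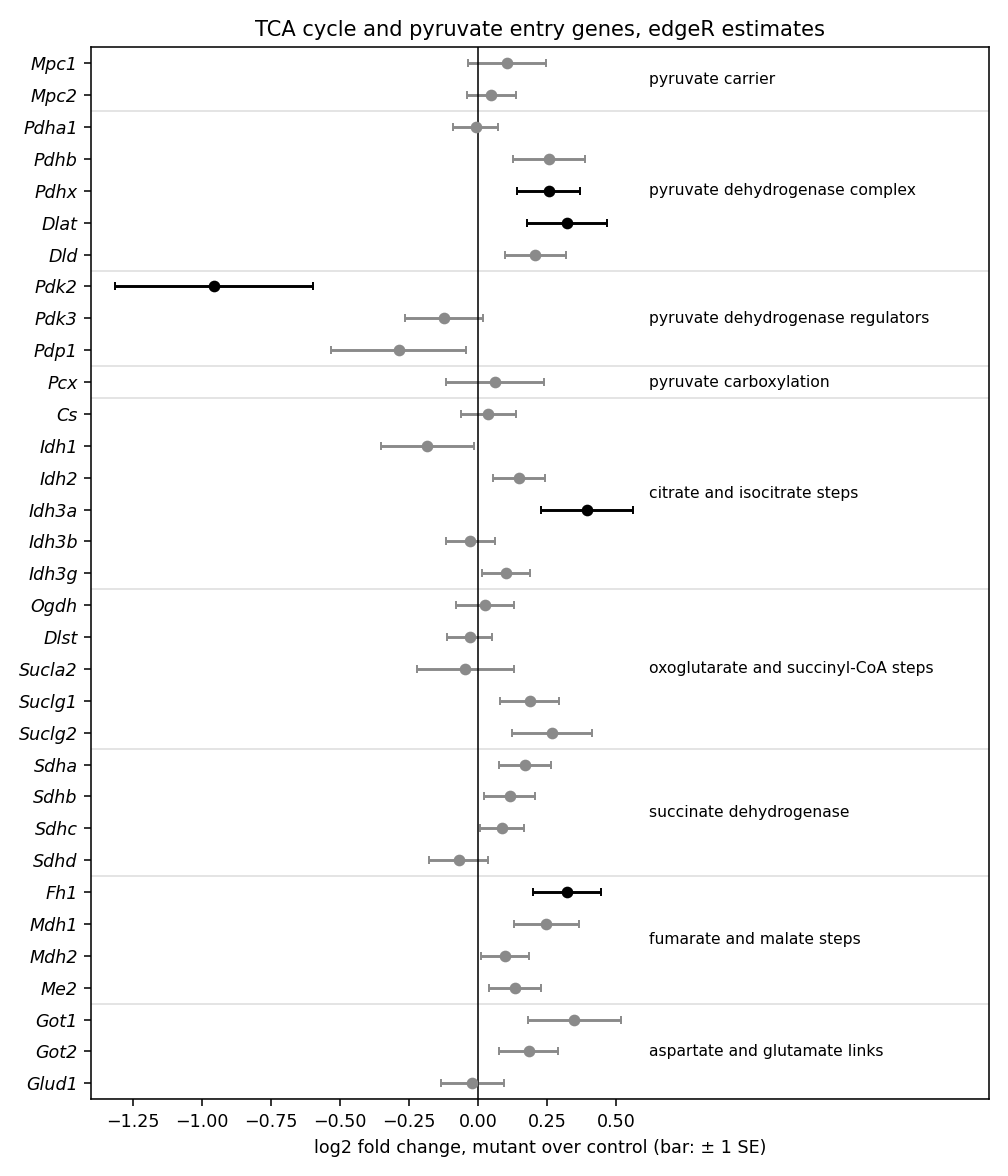
Log2 fold change of each of the 33 genes, mutant over control, with bars of ± 1 SE from edgeR, ordered by metabolic step. Black points have an unadjusted p under 0.05 (Fh1, Idh3a, Dlat, Pdhx and Pdk2), grey points do not, and 23 of 33 points lie to the right of 0.

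RefSeq promoters on GRCm38.p6, each 250 bases before to 50 after a gene's start, were used for 29 of the 33 genes, in 38 windows. The remaining genes of the set, with no window found or with theirs left out, did not enter the motif shares below. Of the 5 genes with the smallest p-values, those with higher values in mutants were taken. Idh3a was among them, but no promoter was found for it. Fh1, Dlat and Pdhx are shown here with the 100 bases just before their start. All 3 lie on the minus strand, and the bases are written 5′ to 3′ along the gene, all in lower case since none of the searched motifs lies in them.
Fh1, chr1:175625636-175625735: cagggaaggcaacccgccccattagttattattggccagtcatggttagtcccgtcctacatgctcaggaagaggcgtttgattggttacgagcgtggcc
Dlat, chr9:50659781-50659880: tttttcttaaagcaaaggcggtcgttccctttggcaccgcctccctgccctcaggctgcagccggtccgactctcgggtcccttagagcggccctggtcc
Pdhx, chr2:103073514-103073613: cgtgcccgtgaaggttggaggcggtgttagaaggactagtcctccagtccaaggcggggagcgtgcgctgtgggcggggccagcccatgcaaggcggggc
Their G and C content was 54.0%, 63.0% and 69.0%, beside a median of 55.0% for the 100 bases just before the start in all 32851 windows.

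The windows were searched on both strands for the core letters bound by factors known for nuclear-encoded mitochondrial genes. The NRF1 letters GCGCATGCG stood in 2 of the 38 windows (5.26%), both of Ogdh and overlapping, and in 1.75% of all windows. The GABPA letters CCGGAAGT stood in 1 window, of Dlst (2.63%), beside 3.89% of all, the YY1 letters AAGATGGCG in 1, of Idh3g, beside 1.40%, and the estrogen-related receptor letters TCAAGGTCA in 1, of Sdhd, beside 0.423%. The 4 matches lie in 4 different genes and so overlap no other motif searched, and a match is a description of the sequence only. The stretches of Ogdh (plus strand) and Idh3g (minus strand) that hold a match are shown with the motif in capitals, as examples of promoters of the set that carry one.
Ogdh, chr11:6292498-6292557: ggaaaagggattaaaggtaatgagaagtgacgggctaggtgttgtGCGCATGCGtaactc
Idh3g, chrX:73786993-73787052: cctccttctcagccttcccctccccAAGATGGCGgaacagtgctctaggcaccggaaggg
Neither gene had a large difference between the groups, with log2 fold changes of 0.03 (SE 0.10) for Ogdh and 0.10 (SE 0.09) for Idh3g.

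The pyruvate carrier had similar levels in both groups. Mpc1 and Mpc2 encode the partner subunits that bring pyruvate into the matrix. Mpc1 stood at 150, 178, 197 and 189 CPM in controls 1 to 4, and at 204, 172, 210, 234 and 141 CPM in mutants 6, 7, 8, 10 and 12. Its highest and its lowest mouse were both mutants (10 and 12), and its log2 fold change was 0.11 (SE 0.14, edgeR adjusted p = 0.831). An interval of 2 SE around the estimate ran from 0.885-fold to 1.31-fold. Mpc2 had 178 ± 10.6 CPM in the controls (SD, n = 4) and 184 ± 16.1 CPM in the mutants (SD, n = 5), a log2 fold change of 0.05 (SE 0.09).

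Within the pyruvate dehydrogenase complex the estimates of the 5 subunits ran from -0.01 to 0.32 on the log2 scale. Pdhx and Dlat had unadjusted p-values under 0.05 and higher means in mutants, and Pdha1 was level. Dlat (ENSMUSG00000000168, GRCm38 chromosome 9, 50634633 to 50659780) encodes the acetyl transferase core, E2. Its level was 29.9, 26.5, 32.2 and 31.6 CPM in the controls and 34.8, 43.7, 28.9, 32.7 and 48.0 CPM in the mutants. Mutants 7 and 12 stood above the rest, mutant 8 lay among the controls, and the groups overlapped. The means were 30.1 ± 2.55 and 37.6 ± 7.98 CPM (SD, n = 4 and 5), a 1.25-fold difference (log2 0.32, SE 0.14, edgeR adjusted p = 0.488).

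Pdhx (ENSMUSG000000109140 in the table, chromosome 2, 103021075 to 103073513) encodes the protein that ties the E3 enzyme to the core. It had 20.5, 17.3, 15.7 and 20.5 CPM in the controls and 22.1, 24.6, 19.0, 22.4 and 22.4 CPM in the mutants. Only mutant 8 was below the highest control, and the means were 18.5 ± 2.37 and 22.1 ± 2.03 CPM (SD, n = 4 and 5). The log2 fold change of 0.26 (SE 0.11) had an edgeR adjusted p of 0.488. Pdhb, the beta subunit of the E1 enzyme, had the same estimate, 0.26 (SE 0.13), with 93.0 ± 3.88 CPM in the controls and 111 ± 22.1 CPM in the mutants (SD, n = 4 and 5), and its 146 CPM in mutant 7 was the highest level. Dld, the E3 enzyme that the oxoglutarate and branched-chain complexes also use, had 0.21 (SE 0.11).

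Pdha1, on the X chromosome, encodes the E1 alpha subunit on which the complex is phosphorylated. It stood at 44.5, 49.7, 44.4 and 47.2 CPM in the controls and at 49.5, 47.1, 48.7, 44.2 and 41.6 CPM in the mutants. The lowest mouse was mutant 12 and the highest control 2, with the groups overlapping, and the log2 fold change was -0.01 (SE 0.08, edgeR adjusted p = 0.979). The interval of 2 SE, 0.887-fold to 1.11-fold, overlapped that of Dlat, 1.02-fold to 1.53-fold. The difference between the subunits was not tested. Counts of Map3k15, which overlaps Pdha1 on the opposite strand, came to 22.2% of those of Pdha1, and the labels do not state the strand setting of the counting.

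The regulators of the complex had estimates on both sides of 0. The 3 in the set, Pdk2, Pdk3 and Pdp1, were below 0, with Pdk2 at an unadjusted p under 0.05. Of the regulators in the wider pathway list, the kinase Pdk1 was at 0.23 (SE 0.16), from 20.8 ± 1.12 CPM in the controls to 24.4 ± 6.27 CPM in the mutants (SD, n = 4 and 5), the phosphatase subunits Pdpr at 0.06 (SE 0.24) and Pdp2 at -0.11 (SE 0.14). Pdk2 (ENSMUSG000000389673 in the table, chromosome 11, 95026258 to 95041354) encodes a kinase that phosphorylates E1 alpha and turns the complex off. It was expressed at a low level, with 17, 25, 15 and 35 counts in controls and 13, 12, 28, 19 and 7 counts in mutants, all above the floor of 3. In CPM these were 1.34, 1.48, 1.02 and 2.07 in controls and 0.716, 0.482, 1.17, 1.03 and 0.415 in mutants. Mutants 6, 7 and 12 lay below every control, while mutants 8 and 10 lay above control 3.

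Mean levels of Pdk2 were 1.48 ± 0.44 CPM in the controls and 0.763 ± 0.332 CPM in the mutants (SD, n = 4 and 5). The log2 fold change of -0.96 (SE 0.36), or 0.515-fold, was the furthest from 0 in the set and did not pass (edgeR adjusted p = 0.408). The interval of 2 SE ran from 0.313-fold to 0.848-fold. Pdk2 had too few counts to be tested in either technical library alone. Pdk3, another kinase of the same family, was at -0.12 (SE 0.14), and Pdp1, the phosphatase that reverses them, at -0.29 (SE 0.25).

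**Figure D2:**
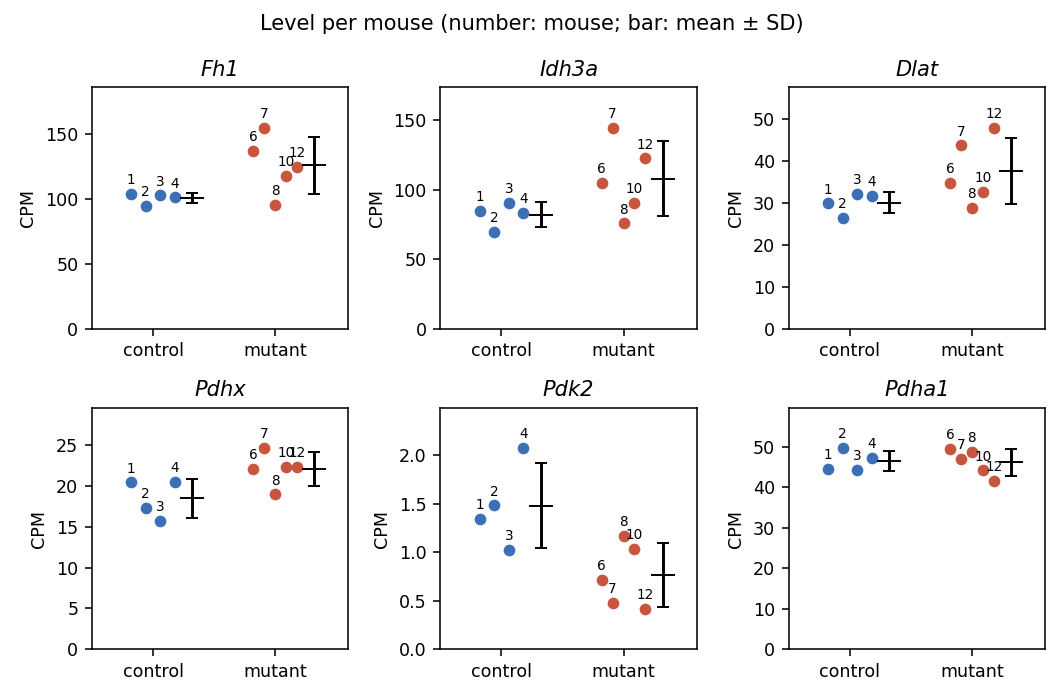
Level in each mouse, in CPM on axes that start at 0, for Fh1, Idh3a, Dlat, Pdhx, Pdk2 and Pdha1, with the mouse number at each point and bars of the mean ± SD (4 controls, 5 mutants). The groups overlap in each of the 6 plots, and mutant 8 lies among the controls for Fh1, Idh3a, Dlat and Pdhx.

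Pyruvate can also enter as oxaloacetate through pyruvate carboxylase, encoded by Pcx. Pcx stood at 4.42, 5.17, 5.52 and 4.44 CPM in the controls and at 6.00, 4.62, 6.26, 4.67 and 3.91 CPM in the mutants. Mutant 8 was highest and mutant 12 lowest, so that the mutants enclosed the controls, and the log2 fold change was 0.06 (SE 0.18, edgeR adjusted p = 0.932). Lrfn4 overlaps Pcx on the opposite strand and had 29.2% as many counts.

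At the citrate and isocitrate steps, the gene with the highest estimate in the whole set stood beside genes that were level. Cs encodes citrate synthase, the first enzyme of the cycle. It had 120, 118, 96.0 and 126 CPM in the controls and 104, 127, 115, 120 and 124 CPM in the mutants. Every value but that of control 3 lay between 104 and 127 CPM, and the log2 fold change was 0.04 (SE 0.10, edgeR adjusted p = 0.926), with an interval of 2 SE from 0.893-fold to 1.18-fold.

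Idh3a (ENSMUSG000000322791 in the table, chromosome 9, 54586334 to 54604661) encodes the catalytic alpha subunit of the NAD-dependent isocitrate dehydrogenase. It stood at 84.7, 69.4, 90.3 and 83.4 CPM in the controls and at 105, 145, 75.8, 90.5 and 123 CPM in the mutants. Mutants 6, 7 and 12 lay well above the controls, mutant 10 was about level with control 3, and mutant 8 was below 3 of the controls. The means were 81.9 ± 8.88 CPM and 108 ± 26.9 CPM (SD, n = 4 and 5), a 1.31-fold difference (log2 0.39, SE 0.17), and the edgeR adjusted p was 0.451. Without mutant 7 the log2 fold change was 0.27.

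The regulatory subunits of the same enzyme did not follow Idh3a in size. Idh3b had a log2 fold change of -0.03 (SE 0.09) and Idh3g one of 0.10 (SE 0.09). Idh3b overlaps Nop56, a ribosome assembly gene, on the opposite strand, and Nop56 had 62127 counts beside 14369 for Idh3b, so the Idh3b level is uncertain to the extent that reads were split between them. Idh3g had 93.0 to 95.4 CPM in controls 1, 2 and 3 and 111 CPM in control 4, within the 96.9 to 112 CPM of the mutants.

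The NADP-dependent isocitrate dehydrogenases, which make NADPH, had estimates of opposite sign. The mitochondrial Idh2 stood at 76.7, 77.7, 95.3 and 89.2 CPM in the controls and at 91.4, 88.2, 103, 87.9 and 99.4 CPM in the mutants. Controls 1 and 2 were below every mutant, controls 3 and 4 among them, and the log2 fold change was 0.15 (SE 0.09, edgeR adjusted p = 0.626). Idh1, the cytosolic enzyme, went from 22.3 ± 4.62 CPM in the controls to 19.6 ± 3.92 CPM in the mutants (SD, n = 4 and 5), with a log2 fold change of -0.18 (SE 0.17, edgeR adjusted p = 0.745).

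The oxoglutarate and succinyl-CoA steps had a median log2 fold change of 0.03 over 5 genes, from -0.05 (Sucla2) to 0.27 (Suclg2). Ogdh encodes the E1 enzyme of the oxoglutarate dehydrogenase complex. It had 37.5, 35.6, 43.9 and 38.8 CPM in the controls and 45.1, 33.4, 42.1, 41.1 and 36.6 CPM in the mutants. Both its highest and lowest mouse were mutants (6 and 7), and its edgeR adjusted p was 0.951, with an interval of 2 SE from 0.881-fold to 1.18-fold. Dlst, the E2 enzyme of this complex, was at -0.03 (SE 0.08). All 5 mutants had Dlst levels between 73.3 and 78.1 CPM, inside the control range of 71.7 to 86.5 CPM.

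Succinyl-CoA synthetase pairs the alpha subunit Suclg1 with a beta subunit that sets the nucleotide it charges, ADP for Sucla2 and GDP for Suclg2. Suclg1 had a log2 fold change of 0.19 (SE 0.11), Suclg2 of 0.27 (SE 0.14) and Sucla2 of -0.05 (SE 0.18). Within a mouse, the log2 ratio of Sucla2 to Suclg2 counts was 0.77, 0.68, 0.57 and 0.74 in controls and 0.24, 0.40, 0.08, 0.45 and 0.70 in mutants 6, 7, 8, 10 and 12. Mutants 6, 7, 8 and 10 lay below every control, and mutant 12 lay among them. The means were 0.69 ± 0.09 and 0.37 ± 0.23 (SD, n = 4 and 5). This ratio was formed from the same counts after the gene values were known, so no test was made.

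Other pairs of isoenzymes that sit in different compartments gave overlapping ratios. The log2 ratio of cytosolic Mdh1 to mitochondrial Mdh2 was -0.91 ± 0.17 in controls and -0.77 ± 0.26 in mutants (SD, n = 4 and 5). For the aspartate aminotransferases Got1 and Got2, of cytosol and mitochondrion, it was -2.09 ± 0.22 and -1.93 ± 0.29, and for Idh1 and Idh2 it was -1.94 ± 0.42 and -2.28 ± 0.33 (SD, n = 4 and 5). Reads at the 3′ end can be caught unequally for different genes, so a ratio carries no statement on which partner is more abundant.

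**Figure D3:**
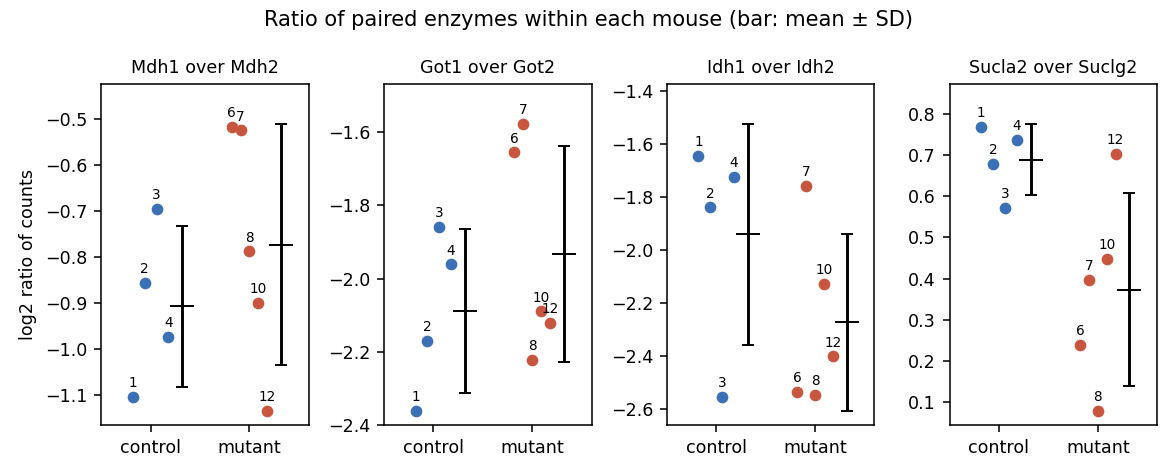
Log2 ratio of counts of paired enzymes in each mouse, with bars of the mean ± SD for 4 controls and 5 mutants. Only for Sucla2 over Suclg2 do 4 of the 5 mutants lie below every control, with means of 0.69 and 0.37.

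Succinate dehydrogenase, which is also complex II of the respiratory chain, had estimates between -0.07 and 0.17 for its 4 subunits. Sdha, the flavoprotein that oxidises succinate, stood at 80.6, 74.2, 92.7 and 81.3 CPM in the controls and at 96.6, 99.9, 81.2, 90.1 and 94.6 CPM in the mutants. Of the mutants 3 were above every control, mutants 8 and 10 were not, and the log2 fold change was 0.17 (SE 0.09, edgeR adjusted p = 0.569). The iron-sulfur subunit Sdhb had 0.11 (SE 0.09) and the membrane anchors Sdhc 0.09 (SE 0.08) and Sdhd -0.07 (SE 0.11). Sdhc was among the most even genes, with 264 to 273 CPM in the controls and 268 to 305 CPM in the mutants. Sdhd stood at 135 ± 14.7 CPM in the controls and 129 ± 14.2 CPM in the mutants (SD, n = 4 and 5).

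All 4 genes of the fumarate and malate steps had estimates above 0, with a median of 0.19. Fh1 (ENSMUSG000000265264 in the table, chromosome 1, 175600374 to 175625635) encodes fumarase, which turns fumarate into malate. It stood at 104, 94.8, 103 and 101 CPM in the controls and at 137, 155, 95.5, 118 and 125 CPM in the mutants. Mutants 6, 7, 10 and 12 lay above every control, and mutant 8 lay among the controls. The means were 101 ± 4.15 and 126 ± 22.2 CPM (SD, n = 4 and 5), 1.25-fold apart (log2 0.32, SE 0.12). Fh1 had the smallest p of the genes with a higher mean in mutants, and it did not pass (edgeR adjusted p = 0.410). Without mutant 7 its log2 fold change was 0.24.

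Mdh2, the mitochondrial malate dehydrogenase, stood at 418, 393, 365 and 452 CPM in the controls and at 432, 422, 419, 455 and 451 CPM in the mutants. The mutants lay close together at the upper end of the controls, and the log2 fold change was 0.10 (SE 0.09, edgeR adjusted p = 0.737). Mdh1, the cytosolic enzyme of the malate-aspartate shuttle, had 217 ± 16.0 CPM in the controls and 257 ± 39.8 CPM in the mutants (SD, n = 4 and 5), a log2 fold change of 0.25 (SE 0.12). With the centred log2 total count as a covariate, the estimate for Mdh1 was 0.08. Me2, the mitochondrial malic enzyme that returns malate to pyruvate, stood at 57.5, 59.1, 51.3 and 59.4 CPM in the controls and at 66.7, 71.4, 57.4, 60.3 and 55.6 CPM in the mutants. Mutants 6 and 7 led, mutants 8 and 12 were within the controls, and the log2 fold change of Me2 was 0.13 (SE 0.09).

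Among the links to aspartate and glutamate, Got1 had 13.3 to 17.4 CPM in the controls and 14.5 to 26.5 CPM in the mutants, a log2 fold change of 0.35 (SE 0.17, edgeR adjusted p = 0.529). Its highest level was that of mutant 7. Got2 was at 0.18 (SE 0.11). Glud1 encodes glutamate dehydrogenase, which feeds glutamate into the cycle as oxoglutarate. It stood at 138, 117, 164 and 127 CPM in the controls and at 145, 145, 123, 116 and 144 CPM in the mutants. Its groups overlapped throughout, with a log2 fold change of -0.02 (SE 0.12) and an interval of 2 SE from 0.84-fold to 1.16-fold.

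The higher values were not spread evenly over the mutant mice. For each gene the deviation of a mouse from the control mean was taken on the log2(CPM + 0.5) scale, and the median over the 33 genes was 0.13 in mutant 6, 0.15 in mutant 7, 0.01 in mutant 8, 0.09 in mutant 10 and 0.05 in mutant 12. The controls had 0.02, -0.04, -0.01 and 0.06. Mutants 8 and 12 thus lay within the range of the controls, and mutants 6, 7 and 10 above it. Over all genes tested the same median was between 0.00 and 0.01 in every mouse.

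Mutant 7 held the highest level of the 9 mice for 12 of the 33 genes, and mutants 10 and 6 for 5 and 4. The other 6 mice held it for 1 to 3 genes each. Summed over the 33 genes the level was 3109, 3075, 3204 and 3315 CPM in the controls and 3565, 3660, 3233, 3468 and 3331 CPM in the mutants. The sums of mutants 6, 7, 10 and 12 were above those of all controls, and that of mutant 8 was not. The cell division markers summed to 1700, 1663, 1747 and 1758 CPM in mutants 6, 7, 8 and 10. Each of these sums was above every control (1562 CPM at most), and mutant 12 had 1441 CPM. The part of cell division in the values of the TCA genes was not tested. Mutant 7 also had the largest total count and the lowest mitochondrial-genome share (0.0701%), and the part of either in its values was not tested.

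**Figure D4:**
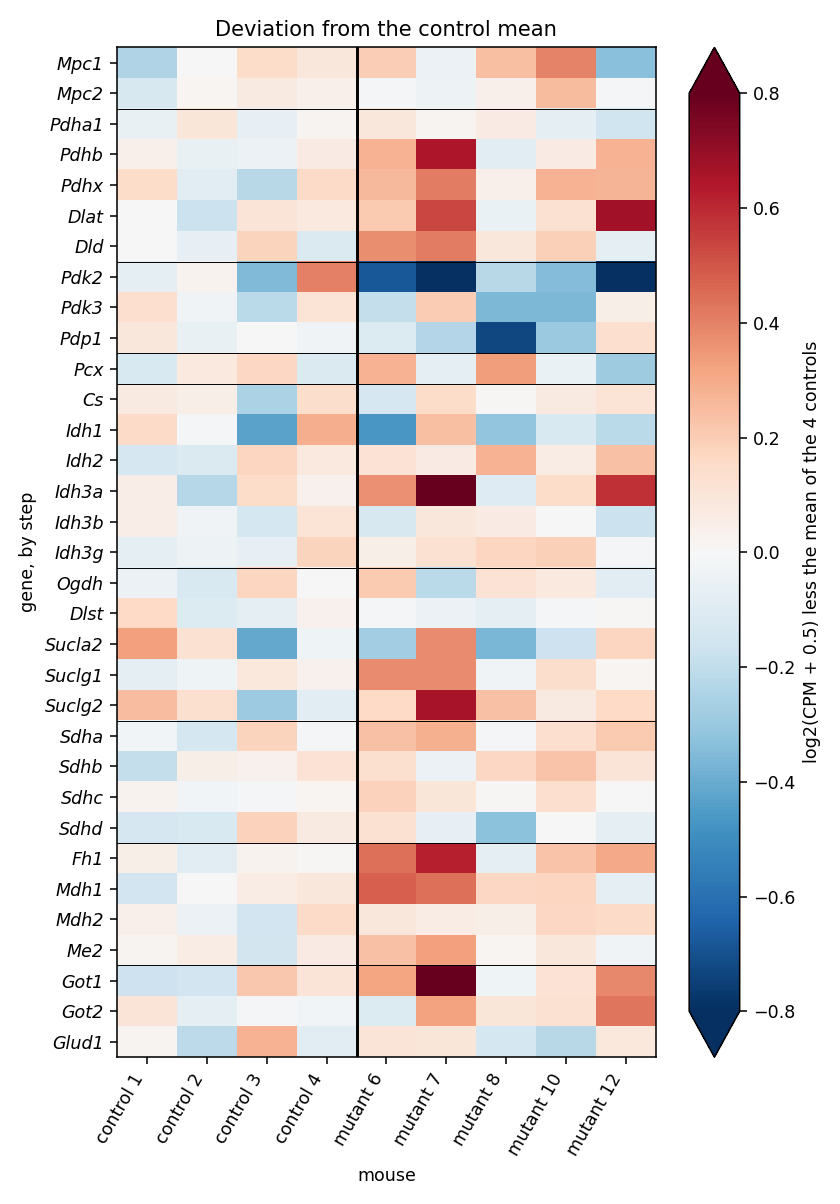
Deviation of each gene from the mean of the 4 controls, on the log2(CPM + 0.5) scale, with genes grouped by step and mice in columns. The column of mutant 7 holds the highest level for 12 of 33 genes, and the columns of mutants 8 and 12 have medians of 0.01 and 0.05, within those of the controls.

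Both technical libraries of a mouse were compared, since the labels give them as technical replicates. The median over the 33 genes of the SD of a library around its mouse was 0.17 on the log2(CPM + 0.5) scale. The SD of mice around their group was 0.16, and counting error alone would give 0.05. In 17 of the 33 genes the spread of a single library exceeded that between mice. A mouse value sums both libraries, so the spread of a single library overstates the library error that a mouse value carries. The log2 fold changes of Fh1, Idh3a, Dlat and Pdhx, 0.26 to 0.39, are to be read beside the spreads of these same genes. In that order, the SD of a library around its mouse was 0.20, 0.37, 0.18 and 0.24. The SD of mice around their group was 0.20, 0.29, 0.24 and 0.16.

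Single libraries could stand far from their partner. Idh3a had 108 and 56.2 CPM in the libraries of control 4 (965 and 442 counts), 173 and 103 CPM in those of mutant 7, and 63.8 and 121 CPM in those of mutant 10. For Sdhd, mutant 12 had 490 counts in its first library and 1660 in its second, a 2.22-fold difference in CPM. Fh1 had 177 and 123 CPM in the libraries of mutant 7. Me2 and Sdhc were the most even, with library SDs of 0.07 and 0.09.

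When the first and the second libraries were fitted separately, 32 genes could be tested in both. Of these, 22 had estimates above 0 in both, 3 below 0 in both and 7 of opposite sign. Fh1 had 0.43 and 0.23, Idh3a 0.37 and 0.44, Dlat 0.38 and 0.26, and Pdhx 0.31 and 0.22 in the first and second libraries. Sdhd had -0.41 and 0.24, the widest split. Both fits use the same mice and are not independent of each other.

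**Figure D5:**
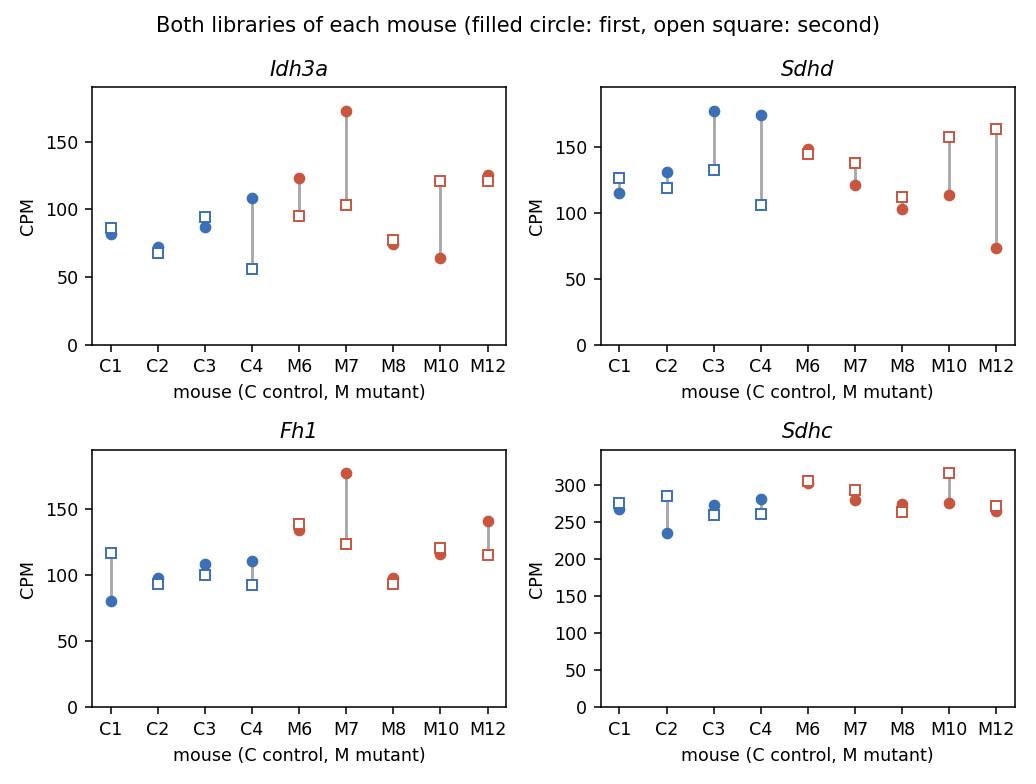
Level in both technical libraries of each mouse, in CPM from 0, for Idh3a, Sdhd, Fh1 and Sdhc, with the first library as a filled circle, the second as an open square and a line joining them. Idh3a in control 4 and Sdhd in mutant 12 show partners far apart, while Sdhc pairs lie close together.

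The other genes of the pathway were read from a list of 37, covering further pyruvate entry, cycle and assembly genes, metabolite carriers of the inner membrane, and glutamine and hydroxyglutarate links. Of these 28 were tested, 0 rose and 0 fell by edgeR (0 with an adjusted p under 0.05), and 19 lay above 0 in log2 fold change, the median being 0.06. Over all genes tested 0.0694% were called. At an unadjusted p under 0.05, 2 of the 28 were higher and 0 lower, beside 4.96% and 4.89% of all genes, and both encode carriers. Pdk4, Csl, Ogdhl, Dhtkd1, Me1, Pck1, Slc25a18, Slc25a21 and Gls2 had too few counts to be tested.

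Slc25a12 encodes the aspartate-glutamate carrier of the malate-aspartate shuttle, in which Mdh1, Mdh2, Got1 and Got2 also act. It stood at 63.7, 72.4, 61.2 and 67.7 CPM in the controls and at 81.1, 89.0, 76.7, 88.1 and 74.2 CPM in the mutants. Every mutant was above every control, the 1 tested gene of this list without overlap, where 4% of all genes had none. Its log2 fold change was 0.31 (SE 0.09), and the edgeR adjusted p of 0.307 did not pass. In the first libraries alone the estimate was 0.45 and in the second alone 0.15. Slc25a10, the dicarboxylate carrier for malate and succinate, had 28.6, 32.3, 35.2 and 32.5 CPM in the controls and 43.6, 29.3, 38.0, 39.9 and 41.7 CPM in the mutants. Mutant 7 was among the controls and the other mutants above them, with a log2 fold change of 0.26 (SE 0.12, edgeR adjusted p = 0.503).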

How the data were processed

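Leukemia stem cells of 9 mice were measured as 18 libraries. Estimated counts per gene and library, unscaled, were deposited by the authors in a single table, with 11.3% of values not whole. GRCm38, Salmon 1.3, bcl2fastq and FastQC are named in the submitters' processing notes, with no role. The annotation release, molecular identifiers, strand setting and transcript-to-gene summing were not given in the sources used here. Table IDs were matched by their first 18 characters to GENCODE M21, which gave a symbol for 54094 of 54347.

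Each mouse's pair of libraries was added and the sum rounded to whole counts, so the mouse was the replicate. Genes passing filterByExpr (minimum count 10) were fitted with edgeR 4.0.16 in R 4.3.3 (TMM, quasi-likelihood F-test, no covariate, 9 mice). Tests were 2-sided, with Benjamini-Hochberg adjustment over 12973 genes and a threshold of 0.05. The biological coefficient of variation was 18.7%. A standard error is the log2 coefficient over the square root of F. The step was tested on simulated data. Floors of 3 counts cover counting error only.

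Per-mouse values are printed for genes with an unadjusted p under 0.05 and for a chosen gene of each step, and for pathway genes with an unadjusted p under 0.05. Members and lists were chosen with earlier results of these data known. Alternatives were DESeq2 1.42.0, RLE factors, limma 3.58.1 (voom on mouse sums, and on libraries with a random effect for the mouse), other low-count filters, a total-count covariate, each technical library alone and leaving out each mouse. Near-identical copies were searched with blastn 2.17.0 over the last 500 bases of transcripts (at least 95% identity over 100 bases), and the copies found for Glud1, Mpc1, Pdhb and Suclg2 held at most 0.035% as many counts as the gene.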

Additional observations from a re-analysis of the deposited data

Results flagged for a closer look

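In each gene of the set, the highest and lowest mouse of each group was compared with its neighbours by Dixon's ratio at the 95% level, in 66 groups of 4 or 5 mice. In 3 groups a single mouse stood apart, and chance alone would mark about 1 in 20 groups. Mpc2 reached 212 CPM in mutant 10, with 172 to 183 CPM for its 4 group mates. Idh3g reached 111 CPM in control 4, with 93.0 to 95.4 CPM for the rest of the controls. Suclg2 reached 36.0 CPM in mutant 7, with 23.7 to 26.6 CPM for the rest of the mutants.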

How the results depend on the processing

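Estimates were recomputed under 18 settings, 9 of which left out a mouse, and 0 of the genes tested among the 33 were called in any of them (30 were tested at a mean of at least 10 CPM and 32 in single libraries). The sign was the same in every setting for 21 genes. The other 12 turned in at least 1, and all of them had estimates within 0.29 of 0 on the log2 scale. Of all genes tested, 9 were called in the reported fit, 21 without a low-count filter, 0 at a mean of at least 10 CPM, 0 with the total count as covariate, 0 and 3 in the first and second libraries alone, 88 by DESeq2, 62 with the mouse as a random effect, and, by mouse left out, 2 without control 1, 4 without control 2, 7 without mutant 6 and 0 without any other.

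Reversed log2 fold changes were Pdha1 at 0.0024 with no filter. With the covariate they were Mpc1 at -0.0633, Pdp1 at 0.0454, Pcx at -0.124, Dlst at 0.0702, Sucla2 at 0.0329 and Glud1 at 0.0311. In the first libraries they were Pdha1 at 0.0372, Idh3b at 0.0296 and Dlst at 0.00727, and in the second Ogdh at -0.0492, Sucla2 at 0.00605, Sdhd at 0.241 and Glud1 at 0.0725. Leaving out a mouse gave ranges of -0.0399 to 0.086 for Cs, -0.0685 to 0.0228 for Dlst, -0.0881 to 0.0826 for Glud1, -0.0713 to 0.012 for Idh3b, -0.00662 to 0.0745 for Mpc2, -0.0226 to 0.0894 for Ogdh, -0.0256 to 0.139 for Pcx, -0.0329 to 0.0256 for Pdha1 and -0.17 to 0.0679 for Sucla2. The median of the 33 ran from 0.0739 without control 1 to 0.15 without control 4. The cause was not tested.

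No paired analysis was possible because the groups share no mouse numbers. Depth limits Pdk2 most, at 7 to 35 counts a mouse.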
